A study of Bos taurus with 8 samples.

Results

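The genes described here mark natural killer (NK) cells and other cytotoxic lymphocytes: GNLY, NKG7, PRF1, GZMA, GZMB, KLRK1, KLRD1, NCR1, FCGR3A and CD244. They were taken by their gene symbol in the deposited series table. The 10 genes had 23 probes, of 43653 probes and 16966 gene symbols on the array, and each probe was read apart from the others. A killer cell of the blood carries granules that hold a pore-forming protein (PRF1), serine proteases that enter the target through the pore (the granzymes GZMA and GZMB) and a membrane-disrupting peptide (GNLY). Receptors on its surface decide whether the granules are released: KLRK1, NCR1 and FCGR3A activate, CD244 acts as a co-receptor, and KLRD1 pairs with NKG2 proteins into receptors that either inhibit or activate. In cattle NCR1 is the marker by which NK cells are usually recognised, whereas granule genes and several of the receptors are also used by cytotoxic T cells, and FCGR3A also by monocytes.

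RNA was measured in peripheral whole blood of female Holstein Friesian cows (n = 5) that had received a probiotic for 60 days before sampling. Blood of the CPE group was exposed to a phenolic extract of cowpea leaf at 10 µg/ml, and blood of the CONTROL group to none, both for 30 min at 37 °C in 5% CO2. No source used here gives the age of the animals or says which cows entered which pool. Both groups had 4 single-colour (Cy3) arrays. Because the series text describes pooled RNA, arrays of the same group may be repeat readings of one pool, and every SD, SE and p below measures the spread between arrays only. Each group lay on a slide of its own, scanned at another time and read with another version of the spot grid. Slide and treatment therefore cannot be told apart in any comparison. In whole blood, fewer cells of a type and less RNA per cell cannot be told apart either. Transcripts of the main blood cells were well above background on all 8 arrays, among them HBB of red cells, S100A12 of neutrophils, CD3E of T cells and CD79A of B cells.

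Large connected parts of every array were dark, and their shape differed between arrays. A spot was called lit on an array when the 90th percentile of raw signal over its 61 nearest spots came within 1.5 log2 units of the bright end of that array. Between 43.15% and 50.17% of spots were lit on the CPE arrays and between 31.88% and 40.79% on the CONTROL arrays, and 29.74% were lit on all 8. The 75th percentile of signal was 135.18 to 279.83 intensity units in CPE and 53.37 to 150.46 in CONTROL. On CPE 3 only 1 spot lay at the array's lowest signal (0.94 units), against 13012 to 21910 spots on each other array. Weak signals on CPE 3 are therefore not on the same footing as those on the other arrays. Of the 23 probes, 7 were lit on all 8 arrays, 10 on some arrays and 6 on none. All 7 of the first kind were also called well above background on all 8 arrays by the scanner software. These 7 probes belong to 6 genes (GNLY, NKG7, GZMB, KLRD1, FCGR3A and CD244). The other 4 genes (PRF1, GZMA, KLRK1 and NCR1) had no probe that could be read in bright surroundings throughout. Nearest to the limit on the inside was FCGR3A, whose probe A_73_102350 exceeded it by 0.21 to 0.44 log2 units. Nearest on the outside was GZMA, whose probe A_73_111672 met it on 7 arrays and missed it by 0.21 log2 units on CPE 2.

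**Figure D1:**
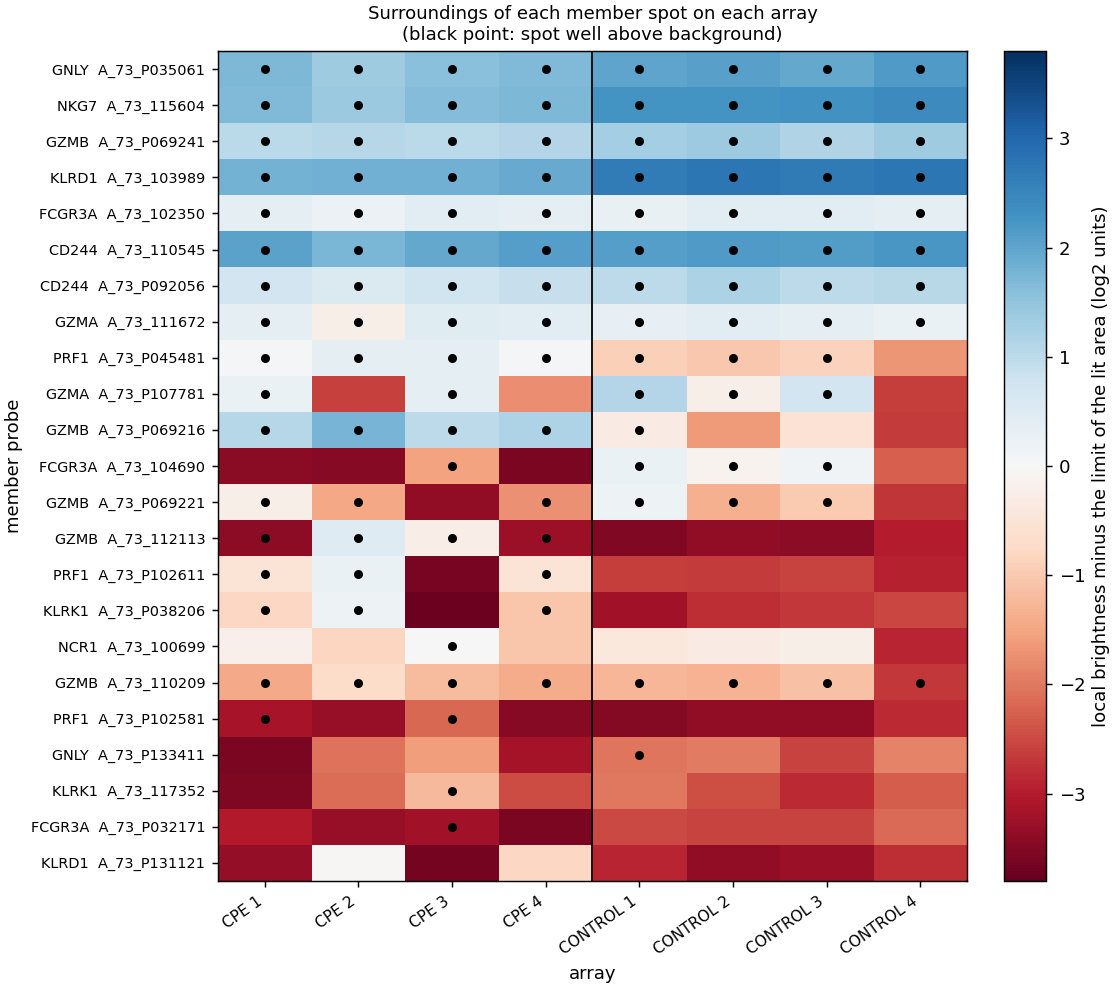
Surroundings of the 23 probes (rows) on the 8 arrays (columns). Colour gives the local brightness minus the limit of the lit area in log2 units, blue above and red below it, and a black point marks a spot well above background. The top 7 probes are blue on all 8 arrays, and 6 probes are red on every array.

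The probes are 60-base DNA strands fixed to the slide, and their sequences set which transcripts are read. Those on which the results turn are shown here 5′ to 3′ as the deposited table gives them, with the part of a probe used where the whole is not needed. The probes in the lit area whose signal differed between the groups were these.
GNLY A_73_P035061, bases 1 to 30: tggacatcaagatgtgcaaaagcaagccag
KLRD1 A_73_103989, bases 1 to 60: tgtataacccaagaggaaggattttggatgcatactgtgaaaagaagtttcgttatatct
NKG7 A_73_115604, bases 1 to 30: ggttccctctctgatttagtcaccctgccg
CD244 A_73_110545, bases 11 to 40: ttccttgtctggagatgatatgagtttgtg
CD244 A_73_P092056, bases 21 to 50: ttccttgtctggagatgatatgagtttgtg
The 2 CD244 probes overlap by 50 identical bases, so they read nearly the same stretch of the transcript and are not independent readings of the gene.

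For FCGR3A and GZMB, several probes carry the same symbol but not the same sequence. The FCGR3A probes A_73_102350 and A_73_P032171 overlap by 55 bases with 1 substitution, G50C, counted from the 5′ end of the former. It is shown in capitals.
FCGR3A A_73_102350, bases 31 to 60: aagctcagaggaatggaggGatggcaaagt
FCGR3A A_73_P032171, bases 26 to 55: aagctcagaggaatggaggCatggcaaagt
They were designed on different transcript records, NM_001077402 and NM_174317. Of the 5 GZMB probes, A_73_P069241 and A_73_110209 follow on from each other with 20 shared bases, in capitals below. The third, A_73_P069216, shares no run of 20 bases with either and was designed on another record. Whether the 5 probes read the same transcript was not tested. It is shown with PRF1 A_73_P045481 because both were lit only on the CPE arrays.
GZMB A_73_P069241, bases 1 to 60: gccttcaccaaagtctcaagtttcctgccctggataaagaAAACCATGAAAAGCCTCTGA
GZMB A_73_110209, bases 1 to 30: AAACCATGAAAAGCCTCTGActgcaggaac
GZMB A_73_P069216, bases 1 to 60: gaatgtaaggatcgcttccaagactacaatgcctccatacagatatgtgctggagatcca
PRF1 A_73_P045481, bases 1 to 60: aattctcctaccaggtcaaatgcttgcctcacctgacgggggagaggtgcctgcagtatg
Positions of the probes in the genome and in exons or untranslated regions are not given, since no genome of the array's build was used here.

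In the lit area, where spots could be compared in bright surroundings on every array, the killer cell genes did not move as one. GNLY and KLRD1 rose in CPE, NKG7 and CD244 fell, and FCGR3A and GZMB did not pass the test. Of the 7 probes tested, 2 were higher against 23.8% of all 8057 probes tested in this area, and 3 were lower against 24.4% (limma, Benjamini-Hochberg adjusted p under 0.05 over all these probes). The median log2 change of the 7 probes was −0.08, beside 0.02 over all probes. Together 5 of 7 were called, against 48.2% of all probes. The 4 CPE arrays lay apart from the 4 CONTROL arrays in 5 of the 7 probes, against 50.6% of all probes. Close to every other probe of the lit area was called, so these shares are not read as a result about the killer cell genes as a set.

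**Figure D2:**
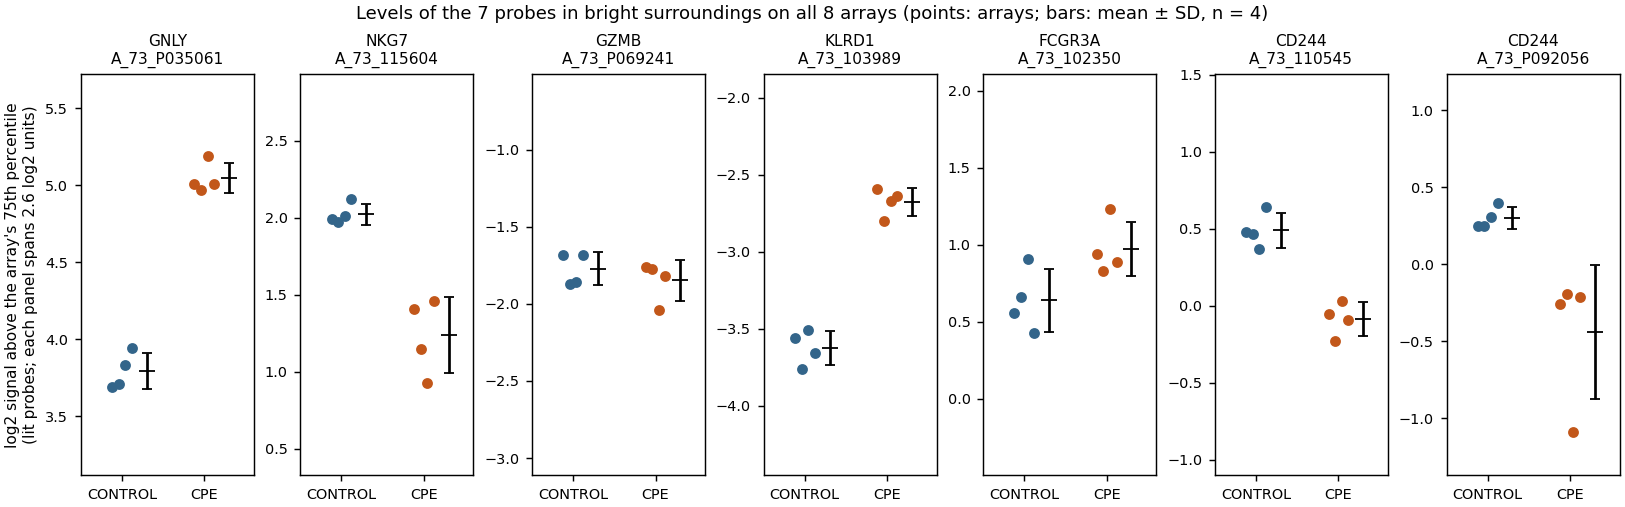
Level of each of the 7 probes lit on all 8 arrays, as log2 signal above the array's 75th percentile over lit probes. Each point is 1 array (4 CONTROL in blue, 4 CPE in orange) and bars are mean ± SD. In GNLY and KLRD1 all CPE arrays lie above all CONTROL arrays, in NKG7 and both CD244 probes below them, and in GZMB and FCGR3A the groups overlap.

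Among the granule proteins, GNLY, which encodes the lytic peptide granulysin, had the largest rise among the 7 probes of the lit area. Its probe A_73_P035061 (NM_001075143) read 24170, 21600, 14550 and 22170 intensity units on CPE 1 to 4, and 9794, 9506, 10170 and 8925 on CONTROL 1 to 4. Every CPE array was above every CONTROL array before any scaling. Scaled to the lit probes, the mean level of the CPE arrays was 5.05 ± 0.10 log2 units and that of the CONTROL arrays 3.79 ± 0.12 (SD, 4 arrays each). The difference was 1.25 log2 units (SE 0.09, 2.38-fold, limma adjusted p = 2.06e-05). Probes in its lit neighbourhood had a median change of −0.06 over 35 tested probes. The call held under all 21 settings tried in this area, with changes of 1.08 to 1.38. Over the whole array, scaled to all probes, the same probe differed by only 0.13 (SE 0.50, adjusted p = 0.826), where the median change of all probes was −0.82. A further GNLY probe, A_73_P133411, designed on a separate record (CK849846), lay in dark surroundings on all 8 arrays. It read 3.72 to 17.9 units in CPE and 19.6 to 60.8 in CONTROL, and was well above background on CONTROL 1 alone. The probe therefore gives no usable second reading of GNLY.

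NKG7, a protein of the granule membrane of NK and cytotoxic T cells, read lower in CPE. Its only probe, A_73_115604 (NM_001035279), read 1983, 1526, 754.7 and 1888 units on CPE 1 to 4 and 3014, 2841, 2880 and 2521 on CONTROL 1 to 4. The highest CPE array was below the lowest CONTROL array, and CPE 3 was the lowest of all. Scaled levels were 1.23 ± 0.25 for CPE against 2.02 ± 0.07 for CONTROL (SD, 4 arrays each), a fall of 1.73-fold (log2 −0.79, SE 0.12, limma adjusted p = 0.00117). Probes around it also read lower, with a median of −0.41 over 33 probes. Subtracting the local deviation of each array (local centring) left a change of −0.27 (adjusted p = 0.00166). The direction and the call thus held under all 21 settings, while the size depended on how local brightness was treated.

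GZMB, the granzyme that cleaves after aspartate and sets off caspases in the target, had 5 probes and only 1 in the lit area. That probe, A_73_P069241, was designed on a record that no other GZMB probe shares. It read 220.2, 201, 96.68 and 195 units in CPE and 237.4, 197.9, 197 and 181.6 in CONTROL. Except for CPE 3 the arrays of both groups were alike. The change was −0.08 (SE 0.10, limma adjusted p = 0.527). Its lit neighbours had a median of −0.30 (36 probes), and with local centring the sign turned and the call was made (0.33, adjusted p = 0.00525). No direction is therefore given for this probe.

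Of the receptors, KLRD1, which encodes the CD94 chain shared by the NKG2 receptors, rose. Its probe A_73_103989 (NM_001002890) read 124.6, 98.87, 62.38 and 110.7 units on CPE 1 to 4 and 64.34, 53.37, 62.52 and 45.99 on CONTROL 1 to 4. In raw units the lowest CPE array, CPE 3, was level with the top CONTROL arrays, but after scaling all CPE arrays lay higher, from −2.80 to −2.59 against −3.76 to −3.51. Mean levels were −2.67 ± 0.09 and −3.62 ± 0.11 (SD, 4 arrays each). The difference was 0.95 log2 units (SE 0.09, 1.93-fold, limma adjusted p = 7.26e-05), with lit neighbours at a median of 0.05 over 31 probes. The probe was dim, and the call was lost with normexp background correction (0.56, adjusted p = 0.263) and without scaling (0.78, adjusted p = 0.0511). KLRD1 had another probe, A_73_P131121, which was not well above background on any array.

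CD244, also called 2B4, binds CD48 on neighbouring cells and signals through the SAP adaptors. Its probe A_73_110545 (NM_001192350) read 723.7, 586.1, 406.3 and 645.3 units in CPE and 1061, 1002, 923.1 and 907.6 in CONTROL, with no overlap. The CPE arrays had a level of −0.09 ± 0.11 and the CONTROL arrays of 0.49 ± 0.11 (SD, 4 arrays each), a fall of 1.49-fold (log2 −0.58, SE 0.09, limma adjusted p = 0.00127). The overlapping probe A_73_P092056 read 622.7, 604.2, 187.1 and 595.1 units in CPE and 899.8, 864.7, 884.8 and 764 in CONTROL. Again all CPE arrays were lower, with CPE 3 far below the other 3. The change was −0.74 (SE 0.20, adjusted p = 0.0139), and −0.52 (adjusted p = 0.000527) without CPE 3. Lit neighbours had medians of −0.13 (42 probes) and −0.22 (40 probes). Under local centring the changes were −0.38 and −0.30, both still called, and the second probe lost its call without scaling (adjusted p = 0.0696).

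FCGR3A encodes CD16, the low-affinity receptor for antibody through which NK cells kill coated targets. The lit probe A_73_102350 read 1433, 1219, 931.1 and 1275 units in CPE and 1115, 1145, 1343 and 780.8 in CONTROL. The groups overlapped, CONTROL 3 reaching into the CPE range. The change was 0.33 log2 units (SE 0.13, limma adjusted p = 0.0651). It passed the threshold in 3 of 20 settings, namely with the replicate block (adjusted p = 0.0356), with local centring (0.25, adjusted p = 0.00972) and without CONTROL 3 (0.42, adjusted p = 0.0309). The remaining FCGR3A probes were not readable across arrays. Probe A_73_104690, on the same record, gave 1567 units on CPE 3 and 604.4 to 734.2 on CONTROL 1 to 3, but only 6.95 to 12.3 on the other CPE arrays and 9.15 on CONTROL 4. Its surroundings were lit on CONTROL 1 and CONTROL 3 alone, and its low readings all came from arrays where they were dark. Probe A_73_P032171, which differs by the 1 base shown above, was lit on no array and well above background on CPE 3 alone.

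The remaining 4 genes could not be compared in bright surroundings on all arrays, and their values are given as read. PRF1, perforin, had 3 probes of record NM_001143735. Probe A_73_P045481 read 477.9, 541.2, 418.4 and 402.6 units on CPE 1 to 4, where its surroundings were lit by a small margin, and 173.1, 100.2, 138.2 and 33.4 on CONTROL 1 to 4, where they were dark. All CPE arrays were higher, on exactly the arrays with lit surroundings. Over the whole array the change was 1.32 (SE 0.43, limma adjusted p = 0.0322), and the 22 tested probes around it had a median of 1.18. The call was made in 8 of 15 alternative settings. It was lost without a filter on dim probes, without CPE 1, CPE 2 or CPE 4, and without CONTROL 2, CONTROL 3 or CONTROL 4. PRF1 probe A_73_P102611 read 49.8 to 142.5 units in CPE and 15.5 to 32.0 in CONTROL, and A_73_P102581 read 22.1 to 168.7 against 8.03 to 10.2. Neither was well above background on any CONTROL array. A probe without a symbol, A_73_114363, is described in the table as a perforin transcript. It read 699.7 to 1920 units in CPE and at the scanner's floor on all 4 CONTROL arrays, and was lit on 1 CPE array and no CONTROL array.

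GZMA, the tryptase-like granzyme, was read by A_73_111672 at 61.1, 41.68, 44.29 and 52.28 units in CPE and at 86.67, 83.01, 76.47 and 64.57 in CONTROL, with no overlap. This probe was well above background on all 8 arrays and lit on all but CPE 2. Over the whole array it differed by −1.59 (SE 0.46, limma adjusted p = 0.0206), beside −1.21 for the 33 tested probes around it. Where the lit area was drawn more widely and took it in, the change was −0.47 (adjusted p = 0.043 with 120 nearest spots) and −0.51 (adjusted p = 0.0297 with a limit of 2 log2 units). With its values on lit arrays alone it was −0.34 (adjusted p = 0.0891). The other GZMA probe, A_73_P107781, read 10.3 to 29.1 units in CPE and 18.7 to 74.0 in CONTROL, and was lit on 2 arrays of each group. Over those lit arrays, CPE 1, CPE 3, CONTROL 1 and CONTROL 3, it differed by −0.87 (adjusted p = 0.035). Its signal on CPE 3 was weak (19.43 units), and weak signals there are not on the same footing as on the other arrays. A separate record that the table calls gzmA had 1 probe, which was not well above background on any array.

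The GZMB probes outside the lit area differed in direction, and they were not all designed on the same transcript record. Probe A_73_P069216 read 189.7 to 335 units in CPE, where it was lit throughout, and 10.2 to 68.6 in CONTROL, where it was dark throughout. Its whole-array change of 2.30 (SE 0.54, limma adjusted p = 0.00719) stood beside a median of 2.72 for the 40 tested probes around it. With normexp it was 0.93 and not called (adjusted p = 0.052). In contrast, A_73_110209, which shares 20 bases with the lit probe, read 102.9 to 190 units in CPE and 140.4 to 229.3 in CONTROL, in surroundings that were dark on all 8 arrays. Its change was −1.17 (SE 0.52, adjusted p = 0.0854). Probe A_73_P069221 read 68.2 to 553 units in CPE and 9.15 to 735.2 in CONTROL, with overlap.

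The most uneven reading was that of GZMB A_73_112113, at 170.7, 3374, 2140 and 90.42 units on CPE 1 to 4 and 8.03 to 10.2 on CONTROL 1 to 4, where it was not well above background. Scaled to all spots, the mean CPE level was 6.57-fold above the mean, over the CONTROL arrays, of each array's lowest signal well above background. The spot was dark on all 4 CONTROL arrays, where those lowest signals need not apply, so this is not a lower limit of the change. The fitted change was 5.03 (SE 0.91, limma adjusted p = 0.00129), but its surroundings were lit on CPE 2 alone. The change was 2.56 with normexp and 4.22 to 5.73 when 1 array was left out. The first 34 bases of probe A_73_P031661, named LOC100125946 in the table, match the last 34 of this one except for A39G, counted from the 5′ end of A_73_112113. That near copy read 2080 to 3823 units in CPE, and 1896 to 2481 on the CONTROL arrays where it was lit, which were all but CONTROL 4 (11.2 units). Its groups overlapped (whole-array change 1.27, SE 1.21, adjusted p = 0.376). Whether the GZMB probe also takes up transcripts of that related gene was not tested.

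**Figure D3:**
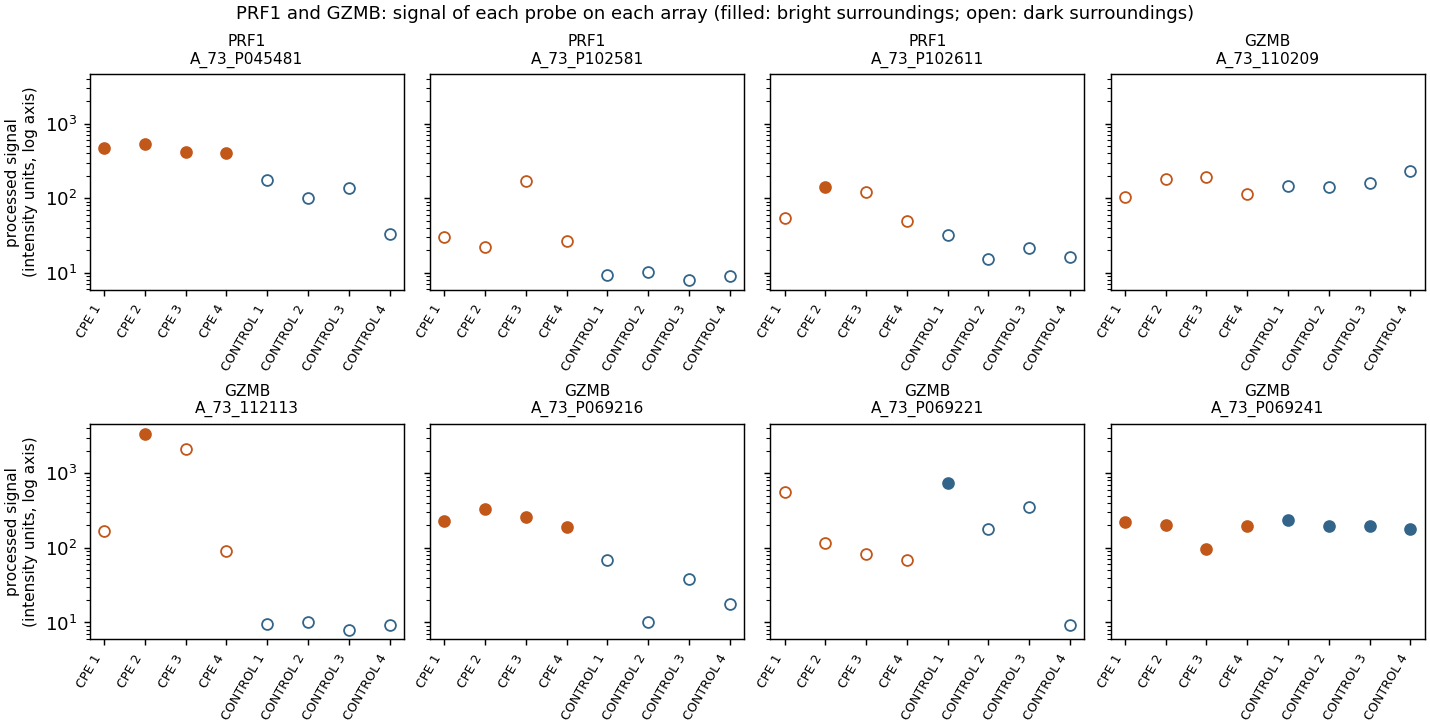
Processed signal (intensity units, log axis) of the 3 PRF1 and 5 GZMB probes on each array, CPE in orange and CONTROL in blue, filled where the spot's surroundings were lit and open where they were dark. GZMB A_73_P069241, filled on all 8 arrays, is level between the groups except for CPE 3, while GZMB A_73_P069216 and PRF1 A_73_P045481 are filled and high in CPE and open and low in CONTROL.

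The activating receptors KLRK1 (NKG2D) and NCR1 (NKp46) were near background. KLRK1 probe A_73_P038206 read 28.2 to 110.8 units in CPE, well above background on 3 arrays, and 9.15 to 10.2 in CONTROL, well above background on none. Its surroundings were lit on CPE 2 alone. The other KLRK1 probe, A_73_117352, and the NCR1 probe A_73_100699 were each well above background on CPE 3 alone, at 85.4 and 30.9 units. Because weak signals on CPE 3 are on another footing, these calls are not read as detection. On the other 7 arrays NCR1 read 7.87 to 22.3 units. The gene by which bovine NK cells are best known was therefore not measurable here, and its low signal came from spots that were dark on 7 of 8 arrays. KLRF1, a further NK receptor gene read by a probe named LOC613393, was lit on all 8 arrays and well above background on none.

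Over the whole array, 12 of the 23 probes could be tested and 11 could not. Of the 12, 3 were called higher in CPE, beside 17.3% of all 14906 probes tested, and 4 lower, beside 21.6%, which makes 7 of 12 beside 39.0% in either direction. The 3 higher ones were PRF1 A_73_P045481 and GZMB A_73_P069216 and A_73_112113. All of them entered the test only because they were well above background on the 4 CPE arrays, and none was lit on any CONTROL array, so their count is not read as support for a rise. The 4 lower ones were NKG7 (−1.91, SE 0.56, limma adjusted p = 0.0211), CD244 by both probes (−1.70 and −1.86, adjusted p = 0.0222 and 0.0315) and GZMA A_73_111672. Without CPE 2 or without CONTROL 4 none of these 4 calls was made, and without CONTROL 2 that of NKG7 alone was. Without a filter on dim probes none of the 4 was called either. GNLY and KLRD1, the genes that rose in the lit area, did not pass here (0.13 and −0.17). A probe's values in the lit area and over the whole array differ only by the scaling, to lit probes or to all probes. In the authors' deposited table, which holds averages on the whole-array scale, GNLY A_73_P035061 differed by 0.13 and NKG7 by −1.91.

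**Figure D4:**
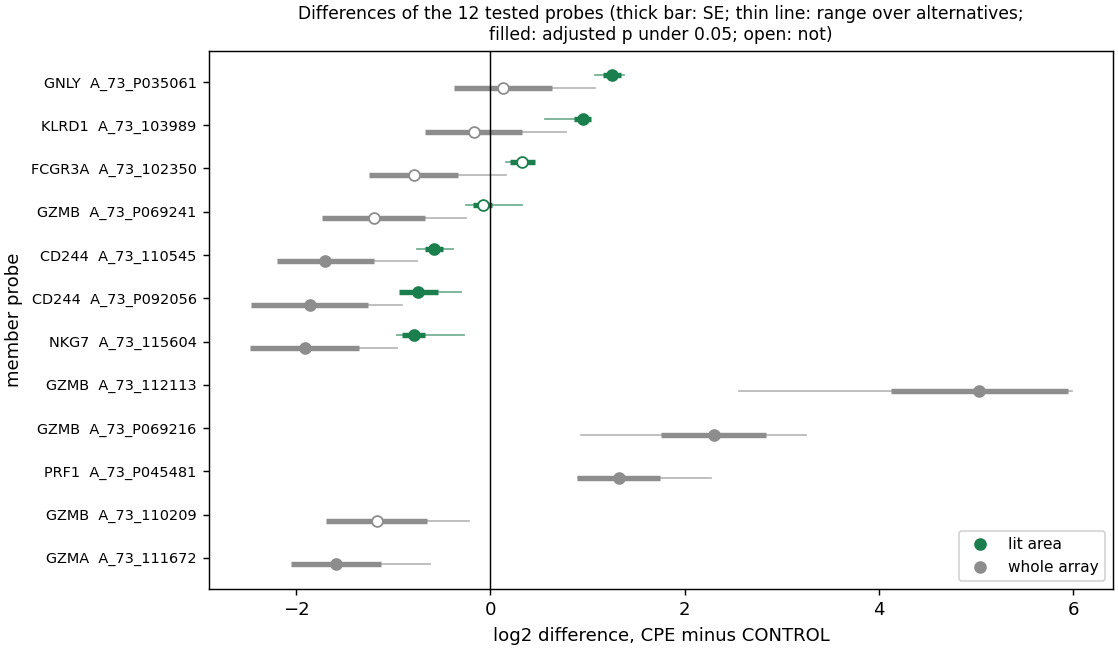
Log2 difference, CPE minus CONTROL, of the 12 probes that could be tested, in the lit area (green) and over the whole array (grey). Thick bars are the SE, thin lines the range over the alternative settings, and filled points have an adjusted p under 0.05. In the 7 probes with both values the grey point lies below the green one, by the same distance, and the GZMB A_73_112113 value of 5.03 is a fit against CONTROL spots that were not well above background.

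Other genes of killing were counted from lists of granule contents, receptors, signalling proteins and release machinery, each gene by its brightest lit probe. Of 2 further granule genes tested, CTSW, a cathepsin of cytotoxic lymphocytes, rose (0.48, SE 0.09, limma adjusted p = 0.00251), and SRGN, the proteoglycan that packs granzymes, had −0.15 (adjusted p = 0.213). Of 4 activating receptors and co-receptors 1 rose, beside 23.8% of all probes, and 1 fell, beside 24.4%. The adhesion receptor gene CD226 rose (1.17, SE 0.17, adjusted p = 0.00081), and SLAMF6, a relative of CD244, fell (−0.99, SE 0.18, adjusted p = 0.00246). The only testable inhibitory receptor gene was KIR3DL2, whose probe was well above background on 4 CONTROL arrays and 1 CPE array. It entered the test only through the group where it was high, so its fitted change of −1.96 (SE 0.21, adjusted p = 0.000163) is not read as a measured size, and it was −0.26 with normexp background correction. Without scaling CTSW lost its call, and with normexp CD226 and KIR3DL2 lost theirs.

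Adaptors and signalling proteins went both ways, with 2 of 9 higher, beside 23.8% of all probes, 3 lower, beside 24.4%, and a median of 0.08. With local centring 5 were higher, and without scaling none. CD247, the zeta chain through which NCR1 and FCGR3A signal, rose by 0.47 (SE 0.09, limma adjusted p = 0.00302) and the kinase gene FYN, which acts below CD244, by 0.65 (SE 0.13, adjusted p = 0.00428). INPP5D, the SHIP phosphatase, fell by 0.76 (SE 0.20, adjusted p = 0.0145). SH2D1B, an adaptor of CD244, had a fitted change of −1.07 (SE 0.30, adjusted p = 0.0185), but was well above background on 4 CONTROL arrays and 2 CPE arrays and so passed the filter only through CONTROL. Among genes well above background on all 8 arrays, 2 of 8 were higher and 2 lower. SH2D1B lost its call without CPE 4, both CD247 and FYN lost theirs without scaling, and normexp background correction ended those of CD247, SH2D1B and INPP5D.

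Among 9 genes of granule release 2 were higher and 3 lower, close to the 23.8% and 24.4% of all probes, with a median of −0.19. RAB27A, the small GTPase that docks granules at the membrane, rose by 0.93 (SE 0.10, limma adjusted p = 0.000188). LYST, the lysosomal trafficking regulator, fell by 1.72 (SE 0.32, adjusted p = 0.00274). VAMP8, a vesicle fusion protein, was at the threshold (0.20, SE 0.07, adjusted p = 0.0433) and lost its call in 13 of the alternatives. Without scaling RAB27A was not called, and with normexp LYST was not.

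Of 5 transcription factors of killer cells none passed, with TBX21 at −0.26 (limma adjusted p = 0.327) and a median of −0.34 over the list. With local centring 3 were higher and 1 lower and the median turned to 0.16, and without CPE 3 there was 1 call each way, with a median of −0.08. Of 4 cytokine and homing receptors 3 fell, beside 24.4% of all probes, and none rose. The count of falls was 2 without scaling and with normexp, local centring or the replicate block. It was also 2 without CPE 4, without any 1 of the CONTROL arrays, and with a lit limit of 1 log2 unit (3 genes tested). With quantile normalisation, with local centring, with the replicate block and without CPE 4, 1 gene was higher. The falls included the integrin chain gene ITGAL (−0.96, SE 0.09, adjusted p = 7.13e-05) and the fractalkine receptor gene CX3CR1 (−0.75, SE 0.17, adjusted p = 0.00711). Neither belongs to lymphocytes alone, since monocytes and neutrophils also carry ITGAL. On the target side, BID, which granzyme B cleaves, rose by 0.80 (SE 0.20, adjusted p = 0.0107), the death receptor gene FAS fell by 0.81 (SE 0.09, adjusted p = 0.000143), and SERPINB6, a protease inhibitor, fell by 0.35 (SE 0.09, adjusted p = 0.00945). In all, 1 of 6 genes of this list was higher, beside 23.8% of all probes, and 2 lower, beside 24.4%. Of 2 NK receptor ligands CLEC2D rose (0.74, SE 0.22, adjusted p = 0.0227). Without scaling BID, SERPINB6 and CLEC2D were not called, and with normexp SERPINB6 and CLEC2D were not. SERPINB6 was not called with local centring either. None of the 10 death ligands, cytokines and chemokines on the array had a probe that could be tested in the lit area.

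Markers of other blood cells moved between the groups as well. Of 10 T cell genes tested 6 were higher, beside 23.8% of all probes, and none lower (median 0.56 against 0.02). CD5 rose by 1.36 (SE 0.21, limma adjusted p = 0.00105) and CD3D by 1.04 (SE 0.12, adjusted p = 0.00025). The chains of the CD8 receptor, which cytotoxic T cells carry, did not pass (CD8A 0.18, adjusted p = 0.252; CD8B 0.04, adjusted p = 0.814). The summed level of the 10 T cell genes, in multiples of the 75th percentile, was 52.2 to 81.7 on the CPE arrays and 30.9 to 38.5 on the CONTROL arrays. The count of 6 was 3 without scaling, 9 with local centring and 4 without CONTROL 4. Of 2 gamma delta T cell genes CD163L1 rose (0.60, SE 0.12, adjusted p = 0.0034), with sums of 9.08 to 12.3 and 7.97 to 9.57.

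Of 6 neutrophil genes 4 were lower, beside 24.4% of all probes, and of the 5 that were well above background on all 8 arrays 3 were. The remaining one, ALPL, was well above background on 4 CONTROL arrays and 1 CPE array and passed the filter only through CONTROL (fitted change −2.23, and −0.45 with normexp). CXCR2 fell by 1.12 (SE 0.27, limma adjusted p = 0.00847). BPI rose by 0.43 (SE 0.09, adjusted p = 0.00724), and S100A12, with 0.24 (adjusted p = 0.0428), turned to −0.08 under quantile normalisation. Sums were 105 to 118 in CPE and 101 to 112 in CONTROL, of which S100A12 alone made up 78.3% to 91.3%. Without it they were 10.3 to 13.1 and 21.2 to 23.6. Of 3 monocyte genes 1 was lower, beside 24.4% of all probes. It was CSF1R (−0.74, SE 0.20, adjusted p = 0.0155), and the sums of the 3 genes were 19.7 to 21.8 in CPE and 25.9 to 28.6 in CONTROL. None of 4 B cell genes was called, the platelet gene PPBP rose by 1.46 (SE 0.14, adjusted p = 7.15e-05), and HBB did not pass (0.28, adjusted p = 0.145). Without scaling BPI, CSF1R and CD163L1 lost their calls, and with normexp ALPL did. Every marker of these lists that was tested, except ALPL, was well above background on all 8 arrays. The part that the share of T cells, neutrophils, monocytes or platelets in the blood has in the changes of GNLY, KLRD1, NKG7, CD244 and the other killer cell genes was not tested.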

How the data were processed

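Cy3-labelled RNA was read on 8 Agilent bovine 44K arrays. The authors quantified the scans with Agilent Feature Extraction 10.10.1.1, per the submitters' processing notes, and deposited 1 file of spot intensity per array. That intensity is background-subtracted, per the file headers, and was not yet brought to a common scale. Their deposited table gives log2 averages of each group, which matched 75th-percentile-shifted values centred on each probe's median (r = 0.9999 and 0.9996 over probes, column medians −0.60 in CPE and 0.46 in CONTROL). Its sign and scale are therefore those of the whole-array comparison here. The lit-area values are scaled to lit probes and so are on another scale. The sources used here do not name a test by the authors.

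Control spots were left out, and 43803 spots of 43653 probes remained. Among these, the 12 to 73 outlier spots per array were treated as missing on that array in the fits. No spot was saturated. Log2 processed signal minus the array's 75th percentile, over lit probes or over all, was compared with limma 3.58.1 in R 4.3.3 (two-sided, Benjamini-Hochberg, threshold 0.05). Tested probes were well above background on every array of CPE, of CONTROL or of both, with at least 2 values per group. SE is the model's, and n = 4 arrays per group. Fits were tested on simulated data. Arrays give no counts, so no counting error is stated, and their number limits the precision.

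Of the probes, 34875 had a table symbol and 26832 matched a current symbol by accession in the ARS-UCD2.0 annotation, used for names only. All 23 probes of the 10 genes are named, and from each other list up to 2 rises and 2 falls past the threshold in the lit area, by the gene's brightest probe, plus genes that define another blood cell type (1 gene named by this rule is not reported here). Genes that did not pass (such as SRGN, TBX21 and CD8A) and probes under other symbols were added after their values were seen. The genes, the lists and the lit area were chosen with earlier results of these data known. Normexp correction used median spot signals, because mean signals were not in the files used here. Other alternatives were quantile normalisation, no scaling, other filters, variance models and limits of the lit area, local centring, the replicate block and leaving out each array.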

Additional observations from a re-analysis of the deposited data

Results flagged for a closer look

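One value stood apart from the other arrays of its group. On CPE 3 the CD244 probe A_73_P092056 had a level of −1.09 log2 units in the lit area, while the other CPE arrays lay between −0.26 and −0.19. The gap made up 0.914 of the range of the 4 arrays. Of 24 groups of 4 arrays examined, 1 had such a value, and chance gives it in about 1 of 20. The overlapping CD244 probe A_73_110545 had its highest CPE level on the same array (0.03). Without CPE 3 the change of A_73_P092056 was −0.52 (limma adjusted p = 0.000527) in place of −0.74.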

How the results depend on the processing

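In the lit area, GNLY, NKG7 and CD244 A_73_110545 kept their direction and their call in all 21 settings. The 2 higher probes were 1 without scaling, 1 with normexp and 4 with local centring, where GZMB A_73_P069241 (0.33) and FCGR3A joined. GZMB also turned sign with normexp (0.093), and S100A12 with quantile normalisation (−0.077). All calls, 3886, were 1469 without scaling (28.9% higher, against 49.4%, with the median of all probes at −0.15) and 1709 with normexp. Local centring gave 62.8% higher and a median of 0.14, and no filter on dim probes 35.2%. Leaving out 1 array gave 2 to 3 higher, 3 lower in each case, and 3253 to 4434 calls.

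Over the whole array, the count of 4 lower probes was 1 without scaling, 2 without a filter (GZMA A_73_P107781 and GNLY A_73_P133411, neither among the 4), and 0 to 4 when 1 array was left out (0 without CPE 2, 1 without CONTROL 2, 2 without CONTROL 4, which were GZMA A_73_P107781 and FCGR3A A_73_104690). The 3 higher were 0 among probes well above background on all 8 arrays, a filter that leaves those 3 probes out, and 2 to 4 with 1 array left out. All calls, 5806 (44.5% higher), were 3130 with normexp, 3678 with the stricter filter (5.57% higher), 3758 to 6873 with 1 array left out, and 73.9% were higher without scaling. Uncalled values that changed sign were GNLY (−0.10 to 0.46 with 1 array left out, −0.10 without CPE 4 and −0.036 without CONTROL 1), KLRD1 (0.78 without scaling, −0.43 to 0.20 with 1 array left out, 0.20 without CPE 3 and 0.05 without CONTROL 4) and FCGR3A (0.16 without scaling). The cause of these shifts was not tested. Counting each named probe under each setting as 1 value, 811 kept direction and call, 80 lost the call, 4 gained it and 9 changed sign.

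The labels number the arrays 1 to 4 in both groups, but same-numbered arrays did not deviate together (r of −0.094, −0.122, 0.225 and 0.373 over lit probes), and CPE 4 alone matched its own number best, so the numbers were not taken as pairs. With the replicate number as a block, 3 of the 7 lit probes were higher and 3 lower, with 3747 calls in all, and over the whole array 3 and 4, with 7022.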
